A study of Mus musculus with 8 samples.

Results

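The X regions described here carried an H3K27me3 peak in each of the Smchd1-deleted libraries and in neither control library. They were found by pooling the X peaks of the 4 deposited lists, merging intervals that overlapped or touched, and keeping merged regions that met this pattern. The rule kept 1709 of 13077 merged X regions, out of 59668 merged regions on the autosomes and X together. They are called gained regions below, a name for the pattern in the lists only.

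The study used female mouse neural stem cells grown as lines from E14.5 embryos, of a mixed C57BL/6, 129 and Castaneus background. All lines started as Smchd1 del/fl, with a maternal 129 X that bore the deltaA allele of Xist and a paternal Castaneus X with wild-type Xist. In the del/del group a retrovirus carrying Cre recombinase and puromycin resistance (MSCV-Cre-puro) removed the conditional allele, puromycin was applied 24 hours later and cells were collected on day 7, while the del/fl group was left untransduced. The lines were split between these treatments after they were established, and the labels do not say which libraries share a line. Each group had 2 H3K27me3 libraries, each paired with a whole-cell extract library. Deletion, transduction and drug selection therefore cannot be told apart, and the lists do not separate the parental X chromosomes.

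H3K27me3 is written by Polycomb repressive complex 2 and lies over silent developmental genes and, in female cells, over much of the inactive X chromosome. X inactivation starts from the noncoding RNA Xist, whose A repeat is required for silencing and is missing from the deltaA allele. Smchd1 encodes a noncanonical SMC protein that accumulates on the inactive X and helps keep it silent and folded.

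Gained regions rarely reached a promoter, and the promoters they covered most fully are shown first because there the gained mark lies over a gene start. RefSeq promoters of build GRCm38.p6, 250 bases before to 50 bases after each start, were available for 1046 X-linked genes. Of 1223 X promoters, 21, belonging to 20 genes, were touched by a gained region, a background of 1.72% of promoters, whereas regions present in all 4 libraries touched another 916, or 74.9%. In 12 of the 21 each del/del library had a peak on the promoter itself, in 4 only del/del 1 did and in 5 only del/del 2. Of the 7 promoters covered over at least 90% in each del/del library, 3 have their upstream stretch outside every annotated gene body, and those are printed 5′ to 3′ as the 250 bases before the start, from RefSeq GRCm38.p6, with CpG dinucleotides in capitals.
Praf2, chrX:7728321-7728570, plus strand: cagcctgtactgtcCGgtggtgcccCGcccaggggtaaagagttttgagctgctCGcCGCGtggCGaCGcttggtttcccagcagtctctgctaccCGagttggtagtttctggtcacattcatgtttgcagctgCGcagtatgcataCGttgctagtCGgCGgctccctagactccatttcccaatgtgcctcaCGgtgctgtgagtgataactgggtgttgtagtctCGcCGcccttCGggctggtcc
Bmp15, chrX:6320725-6320974, minus strand: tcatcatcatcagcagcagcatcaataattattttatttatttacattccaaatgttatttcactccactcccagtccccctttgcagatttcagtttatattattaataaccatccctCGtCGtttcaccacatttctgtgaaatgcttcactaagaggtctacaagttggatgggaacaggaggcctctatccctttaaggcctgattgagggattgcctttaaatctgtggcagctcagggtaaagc
Gm30914, chrX:66147236-66147485, plus strand: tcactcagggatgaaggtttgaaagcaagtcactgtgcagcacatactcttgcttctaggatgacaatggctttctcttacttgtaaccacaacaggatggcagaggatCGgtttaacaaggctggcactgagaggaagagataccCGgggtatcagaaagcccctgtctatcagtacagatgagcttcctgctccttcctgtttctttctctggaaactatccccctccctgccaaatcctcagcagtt

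Praf2, a gene for a membrane protein of the PRA1 family, and Bmp15, a growth factor gene of oocytes, were covered completely in del/del 1 and del/del 2, and the lncRNA gene Gm30914 was covered over 100% and 93.7%. The printed stretches hold 16, 2 and 2 CpG dinucleotides. Of the other 4, Rbm10, an RNA-binding splicing regulator, and Ndufb11, a subunit gene of mitochondrial complex I, lie on opposite strands with overlapping starts in the same gained region, and their upstream stretches hold 20 and 14. Uxt, which encodes a prefoldin-like protein, has 19, and Chst7, a sulfotransferase gene, has 8. These 7 therefore include CpG-rich and CpG-poor starts. High cover did not always come with a strong peak. The highest −log10 q of the gained region in del/del 2 was 1.43 for Praf2, 1.10 for Gm30914 and 1.14 for Chst7. It was 3.33 for Bmp15, 1.84 for Rbm10 and Ndufb11, and 2.03 for Uxt. The lowest −log10 q among all X peaks of del/del 2 was 1.02. In del/del 1 the largest of these region values was 2.97, for Bmp15. Over all 21 promoters the median was 4 CpG (quartiles 2 and 12), against 5 (2 and 12) over all X promoters and 6 (2 and 12.2) over those marked in all 4 libraries.

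The gained pattern was common on X. It made up 13.1% of merged X regions and 1.81% of autosomal ones (841 of 46591). The opposite pattern, both del/fl libraries and no del/del library, held 16 X regions, 0.122%, and 2.38% of autosomal regions. The del/del lists nonetheless held fewer X peaks, 15835 and 13581 against 19355 and 18907 in del/fl. In X regions common to all 4 libraries del/del peaks were longer, with medians of 3524 and 6306 bp against 1472 and 1697 bp. A del/fl peak that meets a longer del/del peak is merged with it, which lowers the count of the opposite pattern. Among regions that each del/del library marked, 23.3% on X (1709 of 7342) and 9.67% on autosomes (841 of 8701) had no del/fl peak. Because the regions were chosen on this contrast, these counts describe the lists and carry no test. Without del/del replicate 1 the number was 5273, without del/del replicate 2 it was 4744, and without del/fl replicate 2 it was 2791. With peaks of −log10 q of at least 5 the rule kept 73 regions, which shared 0 bp with the 1709. Tags left to the caller after removal of duplicates numbered 14064030 in del/del 1, 12819919 in del/del 2, 13288499 in del/fl 1 and 11793402 in del/fl 2, and the share of redundant tags was 0.41 and 0.42 against 0.34 and 0.36. The part of this redundancy in the count was not tested. Each library had peaks at 1 or 2 of 10 neural stem cell marker genes, 3 of 5 neuronal, 1 or 2 of 4 astrocyte, 2 of 4 oligodendrocyte, up to 1 of 4 microglial, 1 or 2 of 4 fibroblast and 1 or 2 of 3 endothelial marker genes. These lists cannot tell more cells with the mark from more mark per cell.

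Whether the pattern returned in libraries that had not been used to choose regions was asked with 1 library of each genotype at a time. Regions with a peak in a given del/del library and none in a given del/fl library were chosen from those lists alone, and the other del/del and del/fl libraries were then read. On X the unused del/del library had a peak more often than the unused del/fl library in all 4 choices. The shares were 75.3% against 30.3% for regions chosen from del/del 1 and del/fl 1, 72.4% against 18.5% from del/del 1 and del/fl 2, 52.6% against 23.9% from del/del 2 and del/fl 1, and 48.2% against 12.5% from del/del 2 and del/fl 2. The choices held 5818 to 6926 regions each. They reuse the same 4 libraries and so are not independent, and with 1 unused library per genotype no test was possible.

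X regions chosen in the opposite way, present in del/fl and absent in del/del, did not return as such. The unused del/del library had a peak at 72.8%, 66.8%, 53.4% and 44.9% of them, in the same order, and the unused del/fl library at 33.2%, 17.4%, 26.2% and 13.1%. So on X the unused del/del library was ahead whichever way regions were chosen. On autosomes, for regions chosen as gained, the unused del/del library was ahead in 1 of the 4 choices. There the unused del/del library had a peak at 32.4%, 27%, 13.5% and 10.6% of them, and the unused del/fl library at 32.6%, 15.6%, 22.9% and 10.7%. Over the whole X span, peaks covered 48.4% and 53.5% in del/del but 31.5% and 35.7% in del/fl.

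Gained regions were short. Their median length was 1564 bp, with quartiles of 1036 and 2391 bp and a range from 209 to 9889 bp. The plot of lengths orders the patterns of X regions by how many libraries held them. Regions in a single del/del library had a median of 533 bp, those in both del/del and 1 del/fl library 2663 bp, and those in all 4 libraries 10772 bp. On autosomes the 841 gained regions had a median of 997 bp. Without del/del replicate 1 or replicate 2 the median on X was 738 or 641 bp. Merging joins more peaks where more libraries contribute, so the order of lengths follows in part from the rule.

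**Figure D1:**
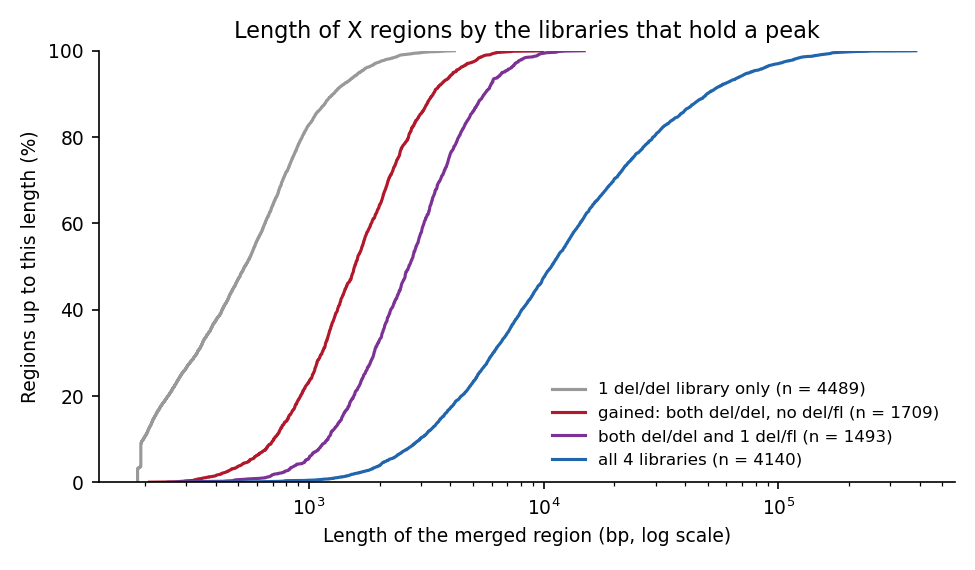
Cumulative share (%) of merged X regions up to each length (bp, log scale), with 1 line per pattern of libraries. The line of the 1709 gained regions lies between that of the 4489 regions of a single del/del library and that of the 1493 regions also present in 1 del/fl library, with medians of 1564, 533 and 2663 bp.

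In sum the gained regions spanned 3.18 Mb, or 5.17 Mb without del/del replicate 1 and 6.43 Mb without del/fl replicate 2. In 1514 of them, 88.6%, each del/del library had exactly 1 peak. Peaks of del/del 1 filled a median of 61.6% of a region and those of del/del 2 a median of 82.5%. The bases under a peak in both libraries made up a median of 33.9% of a region (quartiles 19.2% and 53.0%). That each library had a peak there was set by the rule, and the edges were unlike. Del/del 2 filled more of the region than del/del 1 in 1073 regions and less in 633.

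Most newly covered X sequence lay elsewhere. Across X, 13.7 Mb was under a peak in each del/del library and under none in del/fl. Gained regions held 1.18 Mb of this, 8.62%. Regions marked in all 4 libraries held 81.3%, as stretches between or beside their del/fl peaks, and regions shared with 1 del/fl library held 10.1%. Gained regions are therefore the small share of the difference that did not join a peak already present in del/fl.

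The peaks in gained regions were weak within their own lists. Pileup, the deposited signal level in stacked tags, had a median of 7.14 in del/del 1 (quartiles 6.65 and 7.82) and 6.46 in del/del 2 (5.84 and 7.10). The lowest pileup in these lists was 6 and 5. Peaks in X regions common to all 4 libraries had medians of 8.80 and 8.17, and peaks found by that del/del library alone had medians of 6.90 and 5.90. The median gained peak stood above 22.9% of X peaks in del/del 1 by pileup and above 31.8% in del/del 2. These pileups and ranks are the authors' peak values, compared within a list.

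Fold enrichment over the local background told the same order. Its median was 3.17 and 3.04 in gained regions, 3.53 and 3.27 over all X peaks of the same lists, and 3.75 and 3.66 where all 4 libraries had a peak. The median −log10 q was 2.02 and 1.78, against 2.69 and 2.21 for all X peaks. Only 7 of 1855 gained-region peaks in del/del 1 and 0 of 1785 in del/del 2 reached a −log10 q of 5, with highest values of 6.19 and 4.94. Background tags recovered from pileup and fold, with 1 added to pileup and to background, were 1.51 and 1.37 at the median in gained regions and 1.56 and 1.44 over all X peaks, near the genome-wide level of 1.40 and 1.32 that tag number, fragment length and genome size give.

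Pileup varied little among gained regions. The 398 under 1 kb had median pileups of 7.09 and 6.22, and the 99 of at least 4 kb had 7.58 and 6.78. Regions inside genes had medians of 7.22 and 6.47, and those more than 100 kb from any gene 7.15 and 6.51. Regions without a del/fl peak within 5 kb, 470 in number, had 7.07 and 6.29, and the 371 with a del/fl peak within 1 kb had 7.27 and 6.59. Of these contrasts, that by length was the widest. Each value here is the highest peak of a region in that library, which can rise with the number of peaks. No median here reached 8.80 in del/del 1 or 8.17 in del/del 2, the medians in regions common to all 4 libraries. Those are medians over single peaks, so the measures are unlike.

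At the edge of the rule, the weakest gained regions by the larger of the del/del values lay in Dach2 at 113531664 to 113532190, in 4933403O08Rik at 112177319 to 112177914 and in Mid1 at 169890372 to 169891641. Their −log10 q values in del/del 1 and del/del 2 were 1.14 and 1.03, 1.14 and 1.23, and 1.13 and 1.25. Just outside lay 154948303 to 154949296, 59861679 to 59862539 and 155969515 to 155974321, each kept out by a single del/fl 2 peak with a −log10 q of 1.01 and a pileup of 5. Of the 1493 X regions that had peaks from del/del 1, del/del 2 and 1 del/fl library, 356 had no del/fl peak above a −log10 q of 1.3. Absence from a list means that no peak was listed, not that the mark was absent.

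The longest gained region, chrX:20611192-20621080 (mm10), is the one over the starts of Rbm10 and Ndufb11 shown above. Its peaks filled 65.4% of 9889 bp in del/del 1 and 79.3% in del/del 2, with highest pileups of 8.10 and 6.25 and fold enrichments of 3.54 and 3.08. In the 50 kb on each side, gained regions left out, cover was 21.0% and 30.8% in del/del but 1.05% and 8.70% in del/fl. It thus sat in a stretch with little mark in the control libraries. The next in length, 9061 bp at 63316402 to 63325462, lay 789 kb from the nearest annotated gene, with pileups of 8.75 and 8.06.

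Of the other long ones, the region at 155555668 to 155563048 lay 6.69 kb from Ptchd1, a patched-domain gene linked to intellectual disability, and filled 49.5% and 87.3%. The region at 109086752 to 109093298 lay 2.11 kb from Sh3bgrl, which encodes a thioredoxin-like protein. There del/del 1 filled more, with 89.1% against 52.1%. The 7381-bp Ptchd1 region and the 6547-bp Sh3bgrl region show that either library can be the broader one. The region at 40682449 to 40688747 lay 712 kb from Gria3, an AMPA receptor gene, and those at 132045959 to 132052264 and 132525846 to 132532071 lay 1530 and 1050 kb from Pcdh19, a protocadherin gene. Those at 108894864 to 108902179, 63844114 to 63851198 and 109574959 to 109581848 lay nearest to Gm14870, Gm6760 and Gm34521, at 1.14, 300 and 16.2 kb. Among the 10 longest, neighbouring genes thus ranged from overlapping to more than 1 Mb away.

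By mean fold enrichment the leading gained regions were short. The highest, at 149569930 to 149570591, was 662 bp long, 24.0 kb from Gm10439, with folds of 4.70 and 4.08. Another near the same gene, at 149646345 to 149647126, had the highest fold in del/del 1, 5.18, and 3.25 in del/del 2. The region at 39749987 to 39752413 had 4.92 and 3.62, and the one at 85968517 to 85970513 had 4.58 and 3.90. The region inside Cnksr2, a scaffold protein gene of synapses, at 158032552 to 158034852, had 4.18 and 4.22 and was almost filled by both libraries, 96.9% and 94.7%. These leaders differed by more between the del/del libraries than the Cnksr2 region did.

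Gained regions formed loose groups between sparse control peaks. The median gap between neighbouring gained regions was 15.2 kb (quartiles 4.75 and 39.9 kb), and 40.4% of gaps were at most 10 kb. It was 5.19 kb without del/del replicate 1, 6.64 kb without del/del replicate 2 and 7.82 kb without del/fl replicate 2. The nearest del/fl peak lay a median of 2.42 kb away, and 87.1% of gained regions had one within 10 kb. Going along X, 1175 gained regions, 68.8%, had a region of another pattern on each side, and the longest row without one between held 9. Del/fl peaks belonged to both neighbouring regions of 392 gained regions, to a single neighbour of 721 and to neither of 596.

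The del/fl peaks left 18980 gaps between them on X, and gained regions kept to gaps of intermediate length. Gaps of 5 to 50 kb held 1381 of the 1709, 80.8%. The rate was 68.6 gained regions per Mb of gap for gaps of 10 to 20 kb, 46.1 for 5 to 10 kb and 56.2 for 20 to 50 kb. It was 12 for 50 to 200 kb and 0.558 in longer gaps. Gaps under 2 kb held only 7.

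Short gaps were closed instead. In gaps under 1 kb, 68.7% of bases were under a peak of each del/del library, and 4933 of 7772 such gaps were covered from end to end. The share fell to 50.6% for gaps of 1 to 2 kb, 33.5% for 2 to 5 kb, 16% for 5 to 10 kb and 0.0227% in those of 200 kb or more. A del/del peak that reaches a del/fl peak is merged with it and does not count as a gained region, so the rule itself lowers the rate in short gaps. In the longest gaps del/del peaks themselves were nearly lacking, as the share of 0.0227% shows.

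**Figure D2:**
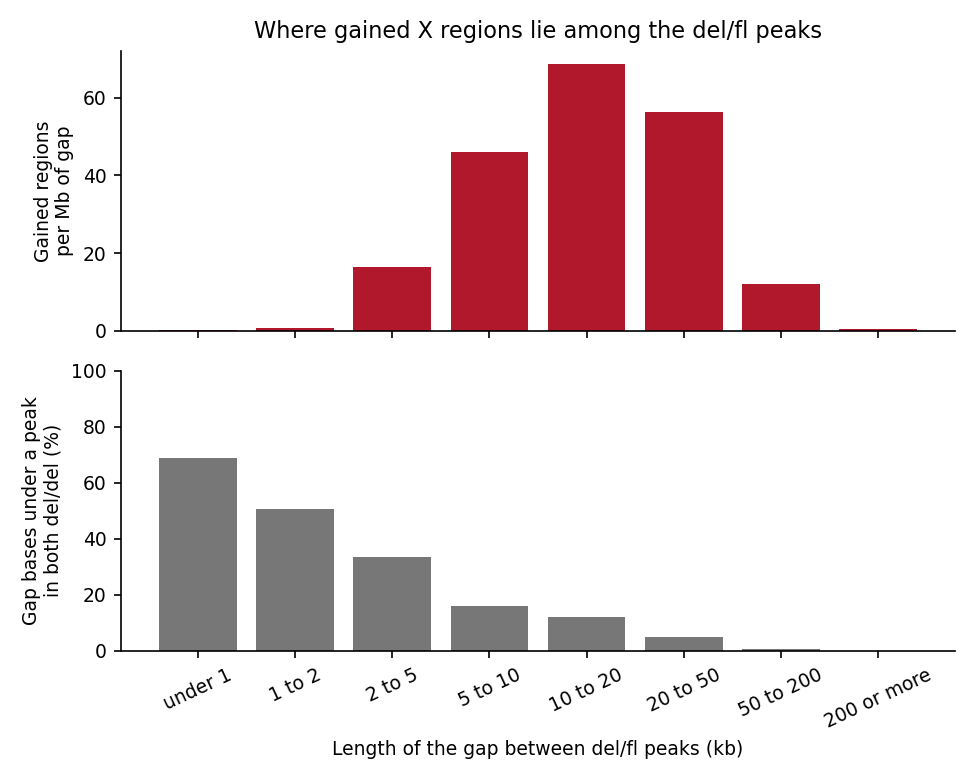
Upper bars give gained X regions per Mb of gap and lower bars the percentage of gap bases under a peak in both del/del libraries, by the length (kb) of the gap between neighbouring del/fl peaks. Gained regions peak at 68.6 per Mb in gaps of 10 to 20 kb, while the covered share falls steadily from 68.7% in gaps under 1 kb.

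The same lists were also read over windows of 1 Mb, grouped by their del/fl cover. Windows with 1% to 20% cover in del/fl numbered 31 of 171, 18.1%, and held 1132 gained regions, 66.2%. The mean was 36.5 per window at 1% to 10% del/fl cover, 36.5 at 10% to 20%, 22.7 at 20% to 30% and 1.34 at 60% or more. Windows under 1% had a mean of 1.73, and 30 of these 45 held none. Gained regions were thus frequent where control peaks were sparse, and few where control peaks were nearly lacking or already dense. In dense windows a del/del peak more easily meets a del/fl peak, so the rule itself lowers the count there. The windows are therefore no separate check on the gaps.

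**Figure D3:**
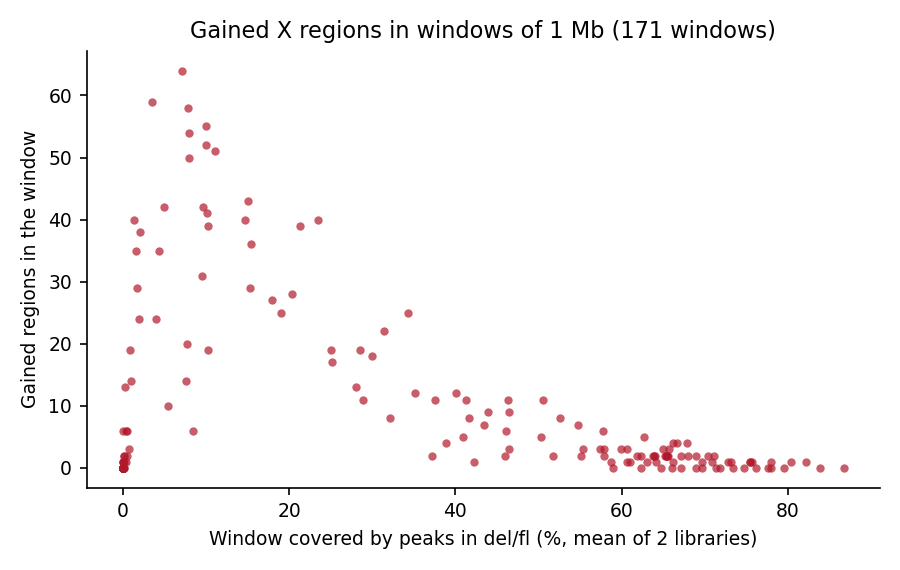
Each point is a 1-Mb window of X, with its number of gained regions against the percentage covered by peaks in del/fl (mean of 2 libraries). Counts rise to 64 in sparsely covered windows and fall to 5 or fewer in the 53 windows with at least 60% cover.

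The fullest window, chrX:112000001-113000000, held 64 gained regions over 126 kb. Its cover was 29.2% and 42.6% in del/del but 6.10% and 8.09% in del/fl. Among its protein-coding genes are Tex16 and Satl1, Apool, a gene for a mitochondrial lipid-binding protein, Zfp711, a zinc finger gene linked to intellectual disability, and Pof1b, an actin-binding protein gene. Windows starting at 44000001, 39000001, 45000001 and 21000001 followed with 59, 58, 55 and 54. Dcaf12l1 and Dcaf12l2 lie in the first of these, the sperm genes Cypt14 and Cypt15 in the next, and Agtr2, an angiotensin receptor gene, and Slc6a14, an amino acid transporter gene, in the last. Together the 5 windows held 17.0% of all gained regions.

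The longest stretch without a gained region ran from 113812394 to 126680959, over 12.9 Mb. Cover there was 0.0311% and 0.251% for del/del, with 0.0120% and 0.0359% for del/fl, so the stretch was nearly bare of listed peaks in all 4 libraries. How well reads can be placed there was not measured. The stretch from 48851745 to 52770894, 3.92 Mb without a gained region, was the reverse. Its cover was 87.2% and 89.8% in del/del but 76.0% and 79.3% in del/fl.

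Around gained regions all 4 libraries had less mark than over X as a whole. Within 50 kb on each side, gained regions left out, mean cover was 29.8% and 40.6% in del/del but 10.6% and 14.9% in del/fl. As group means this was 35.2% ± 7.62 and 12.7% ± 3.06 (SD, n = 2), a fold of 2.77 that ran from 2.00 to 3.85 over the pairs of libraries. Over all of X the group means were 51.0% ± 3.59 and 33.6% ± 2.94, a fold of 1.52, from 1.36 to 1.70. The rule picks places without a del/fl peak, so the low del/fl cover near them enters the larger fold. The difference between the group means around gained regions was 22.5 percentage points, or 14.3 without del/del replicate 2. At 1655 of the 1709 regions, 96.8%, both del/del libraries had more cover in these surroundings than both del/fl libraries. This measure belongs to the contrast that chose the regions and is given without a test. The same order held over the whole X span, with 48.4% and 53.5% against 31.5% and 35.7%. The share at other places of X was not counted, so the 96.8% is not read as particular to gained regions.

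In the profile around their centres, gained regions stood out from their immediate flanks. At the centre 68.6% were under a del/del 1 peak and 83.0% under a del/del 2 peak. At 2 kb these shares were 20.1% and 28.8%, and at 10 kb they were 32.8% and 44.5%. The dip beside the centre is set by the merging, which requires a break on each side. In del/fl the shares rose from 0 at the centre to 9.25% and 13.4% at 10 kb and 12.5% and 16.1% at 50 kb.

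**Figure D4:**
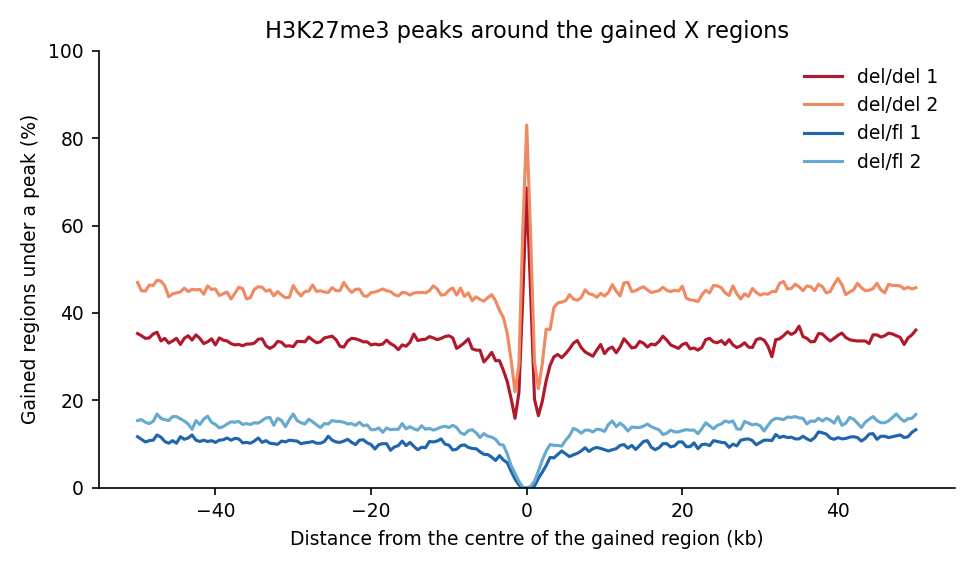
Percentage of the 1709 gained X regions under a peak at each distance (kb) from the region's centre, with 1 line per library. Both del/del lines run above both del/fl lines across the 50 kb on each side, at 32.8% and 44.5% against 9.25% and 13.4% at 10 kb.

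Most gained regions lay far from very long peaks. Peaks longer than 20 kb numbered 902 and 1144 on X in del/del but 187 and 330 in del/fl. The median gained region lay 1210 and 723 kb from the nearest such peak of del/del 1 and del/del 2, and 2350 and 2540 kb from that of del/fl 1 and del/fl 2. Regions in a single del/del library lay somewhat farther, at medians of 1410 and 936 kb from the del/del long peaks. X regions of up to 20 kb marked in all 4 libraries lay much nearer, at 164 and 56.3 kb. Within 50 kb of a long peak were 6.26% and 11.5% of gained regions in del/del 1 and del/del 2, against 0.585% and 1.29% in del/fl 1 and del/fl 2. With peaks over 10 kb taken as long, the medians were 314 and 110 kb in del/del, and with peaks over 50 kb they were 2840 and 1660 kb.

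Most gained regions lay outside genes. Of 1709, 344 overlapped a protein-coding or lncRNA gene (20.1%, exact 95% interval 18.3% to 22.1%), and 305 a protein-coding gene. Of regions present in all 4 libraries 43.1% overlapped a gene, and of those in a single del/del library 19.6%. Midpoints, which do not depend on length, fell in a gene for 19.4% of gained regions and 34.4% of regions in all 4 libraries. Genes make up 29.6% of the X span. Outside genes the median distance to the nearest gene was 130 kb, and 749 regions, 43.8%, lay more than 100 kb from any gene, up to 1550 kb. The intervals cover counting error only, since regions are not replicates, and the gene table used gives no exons, so exon and intron overlap was not analysed here.

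The bodies of 128 of 1255 X-linked genes, a background of 10.2%, held a gained region, 109 of them protein-coding and 66 with a single one. Long genes held them more often, 22 of 50 genes of 200 kb or more against 19 of 552 under 10 kb. Per Mb of gene the rates were 6.18 and 9.42, against 7.04 over all X genes. So the longer genes held gained regions more often, at a lower counted density. A region that overlaps a gene only in part counts in full, which raises the rate of short genes. The lower rate of long genes is therefore not read as sparser gain.

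Diaph2, a formin gene for actin assembly, held the most, 26 over 716 kb, with body cover of 47.3% and 62.6% in del/del but 13.5% and 15.8% in del/fl. Dach2, a transcription factor gene of the dachshund family, held 19, with cover of 9.47% and 17.1% against 0.486% and 2.52%. Maob, the gene for monoamine oxidase B, held 13 in only 108 kb, a density of 120 per Mb, with 38.9% and 52.3% against 0.576% and 6.93%. In all 3 genes both del/del values lay above both del/fl values, from unlike control levels. The counts and their order depended on single libraries and on merging. Without del/del replicate 1 Diaph2 held 72, Dach2 96 and Maob 22, and without del/del replicate 2 they held 67, 51 and 23. Without del/fl replicate 2 Diaph2 held 40. With merging across 1 kb the counts were 14, 22 and 3. Dmd, the dystrophin gene, was much longer at 2390 kb and held 11, and was densely covered in del/fl already, at 49.1% and 51.7%. Its count was 35 or 58 when del/del replicate 1 or replicate 2 was left out, and it was 18 when del/fl replicate 2 was.

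The remaining leading genes were Mageb18, a MAGE family gene with 14, 4933403O08Rik with 12, the testis-expressed gene Tex16 with 11, the lncRNA gene Gm35105 with 11, the lncRNA gene Gm39497, whose span overlaps that of Gm35105, with 10, and Chm, which encodes a Rab escort protein, with 10. In Chm, cover was 16.8% and 23.5% in del/del but 0.743% and 6.28% in del/fl. Tex16 had 43.6% and 60.3% against 6.28% and 14.0%. Of 86 X-linked miRNA hairpins in the RefSeq table, 1, Mir361, lay in a gained region. Leaving out del/del replicate 1 or replicate 2 raised the count in each of these 6 genes, to between 16 and 42, and leaving out del/fl replicate 2 gave 14 to 23. Without del/fl replicate 1 Gm35105 held 17. The 10 leading genes together held 129 gained regions, 7.55% of the total.

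At gene ends, 21 of 966 X-linked protein-coding genes, 2.17%, had a gained region and no del/fl peak within 2.5 kb of either annotated end. Ndufb11 led, with 66.2% of its end windows covered in del/del 1 and 86.7% in del/del 2. Plp2, a membrane proteolipid gene, had 19.3% and 45.7%, and Klhl13, which encodes an adaptor of a Cul3 ubiquitin ligase, 11.4% and 33.9%. Zfp449, a zinc finger gene, had 7.81% and 39.3%. In these genes del/del 2 had the wider cover. Germline genes appear among the others, with Mageb16 at 9.40% and 26.5%, Mageb17-ps at 29.5% and 30.3% and Cypt15 at 15% and 17.7%. Gm14743 and Obp1b, an odorant-binding protein gene, share an identical run of 291 of 300 promoter bases in RefSeq, so reads cannot be assigned between them with certainty and their values, 13.8% and 19.7% and 7.06% and 25%, are uncertain. 4933403O08Rik, Gm46696 and Gm14870 complete the 12 largest. Of the 12, 1 kept its gained end at a −log10 q of at least 2 and 0 at a −log10 q of at least 5. With merging across 3 kb 4 did so, and with no del/fl peak within 5 kb 7 did. All 12 stayed gained when any single library was left out. For a del/fl library this was bound to be so, since only a condition of the rule is dropped. Leaving out a del/del library also removes its peaks. All 12 had cover from each del/del library in these windows, so their staying says little. Ndufb11 was lost at a −log10 q of 2 and with merging across 3 kb.

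**Figure D5:**
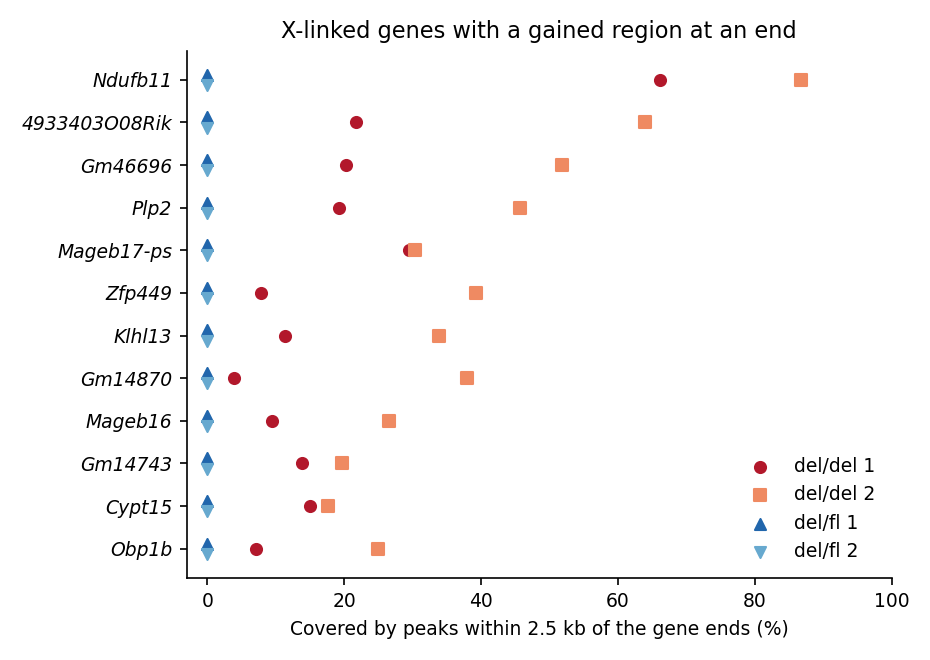
Percentage of the windows within 2.5 kb of each gene's ends that is covered by peaks, for the 12 genes with the largest mean in del/del, with 1 marker per library. Both del/fl libraries are at 0 by the rule, and Ndufb11 leads with 66.2% and 86.7% in del/del.

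Gene lists of X biology were read against all 1255 X-linked genes, of which 10.2% held a gained region and 56.2% (705) had more body cover in both del/del libraries than in both del/fl libraries. The median difference over all of them was 12.6 percentage points. Of 9 annotated genes of the X inactivation centre, 0 held a gained region and 0 had higher cover in both del/del libraries. Of 3 annotated loci that fold the inactive X, 0 held one and 1 had higher cover. Of 17 genes reported to escape X inactivation, 2 held gained regions, 4 had higher cover in both del/del libraries and 10 had no peak in any library. Among all 1255 X-linked genes, 216 had no peak in any library.

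The escape genes with gained regions were Shroom4, an actin-regulating gene, and Mid1, a ubiquitin ligase gene that spans the pseudoautosomal boundary in C57BL/6 mice. Shroom4 held 8, and its body cover was 48.6% and 64.2% in del/del but 10.3% and 16.9% in del/fl. Mid1 held 2, with overlapping cover of 32.4% and 41.8% against 32.6% and 39.0%. So a gained region did not always come with more cover over the gene.

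Of 62 X-linked intellectual disability and brain development genes 15, or 24.2%, held a gained region, and 52 had higher cover in both del/del libraries. This list has long genes, 14.2 Mb in sum, and its density of 4.58 per Mb was below the 7.04 over all X genes. That count raises the rate of short genes. Besides Diaph2 and Dmd, Slc9a7, a sodium-proton exchanger gene, held 4, with 64.0% and 76.1% cover against 16.9% and 23.2%. Syn1, the synapsin gene of synaptic vesicles, held 4 in 60.4 kb, with 39.5% and 60.8% against 5.74% and 6.21%. The 2 del/fl libraries nearly matched in Syn1, unlike the del/del libraries.

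Of 44 metabolic and housekeeping genes 5, or 11.4%, held a gained region, close to the background of 10.2%, and 31 had higher cover in both del/del libraries. Maoa, the gene next to Maob for the related oxidase, held 3, with 13% and 22.7% cover in del/del but 1.58% and 0.283% in del/fl. Rbm10 held 3, with 27.3% and 34.3% against 0.913% and 3.34%. Hprt, a purine salvage gene, held 1 and had 80.5% and 84.5% against 38.2% and 48.2%. The neighbours Maoa and Maob thus both went from little control cover to more in both del/del libraries.

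Of 57 annotated genes of germline families 5, or 8.77%, held a gained region, and 32 had higher cover in both del/del libraries. Their density was 17.5 per Mb, with 30 regions over 1.72 Mb, most of them in Mageb18 and Tex16. Mageb16 held 3, with 10.6% and 13.6% cover against 1.45% and 1.90%, and Magea1 held 1, with 23.0% and 15.1% against 0. Members of these families are near-identical copies in part, so their peaks may share reads.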

How the data were processed

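Chromatin immunoprecipitation with sequencing gave 4 H3K27me3 libraries. The submitters' processing notes name mm10 and Bowtie 0.12.9. MACS2 2.1.0.20140616 called peaks library by library, with replicates not pooled, in broad mode against that library's whole-cell extract, with a stated q-value cutoff of 0.05, 1 tag per position and the larger library sampled down to the smaller, per the file headers. The lowest −log10 q in the deposited lists is 1.01 to 1.04, so weaker regions than that cutoff are listed. Pileup as deposited is a signal level in stacked tags. It takes fractional values although the H3K27me3 libraries were the smaller ones, so it is read here as a level over the peak and not as a summit height. The deposited fold enrichment is a ratio of pileup to the local background from the whole-cell extract, taken here to have 1 added to each when background was recovered. P-values and q-values are deposited as −log10.

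Peaks of the autosomes and X were merged with Python 3.11.15, numpy 2.4.6 and pandas 2.3.3 where they overlapped or touched. Intervals used scipy 1.17.1, and plots matplotlib 3.10.9. Genes and promoters came from RefSeq tables of GRCm38.p6, the build of mm10. The merging, checked on simulated lists, found 200 of 200 gained and 200 of 200 lost regions. The simulated regions were set apart, with 1 peak per library over a shared centre. The check therefore covers the code and not how the rule treats split or crowded peaks. A region's pileup, fold and −log10 q in a library are each the highest among its peaks. Named were the 10 longest regions, the 5 of highest mean fold, the 10 genes holding most, the 12 largest gene ends, up to 4 genes per list, the 5 fullest windows and 3 regions on each side of the rule. The promoters described and the densely covered stretch without gained regions were chosen after their values were seen. The members and lists were chosen with earlier results of these data known. Labels do not say that libraries came from separate embryos, and libraries of both genotypes can share a line. Alternatives were other peak thresholds, lists of equal length, other merging and overlap rules, each library left out, protein-coding genes only and other lengths for long peaks.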

Additional observations from a re-analysis of the deposited data

How the results depend on the processing

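The number and size of gained regions moved with the threshold and the merging. Neighbouring cover was higher in del/del than in del/fl under every alternative run. Each alternative chose regions on that same contrast, and mean cover over all of X was also higher in del/del, 51.0% against 33.6%. The direction is therefore no check on the regions. The main values were 1709 regions, 3.18 Mb, a median length of 1560 bp, a median −log10 q of 1.90, 33.9% of a region shared by both del/del libraries, 15.2 kb between regions, 20.1% overlapping a gene, 967 kb to a long peak and 22.5 points more surrounding cover. In the same order and units, a −log10 q of at least 5 gave 73 regions, 2.15 Mb, 21700 bp, 5.85, 83.0%, 272 kb, 61.6%, 11.6 kb and 11.9 points; 7 and 0 of the del/del peaks in the 1709 regions reach that value. A −log10 q of at least 2 gave 1338 regions, 5.12 Mb, 3150 bp, 2.5, 50.1%, 21.0 kb, 27.1% and 561 kb, and 23.7% of the bases of the 1709 regions were in them. Merging across 1 kb gave 1102 regions, 1910 bp, 1.81, 21.6% shared and 19.5 kb. Merging across 3 kb gave 340 regions, 1.61 Mb, 3380 bp, 1.69, 6.02%, 52.7 kb, 17.1%, 1360 kb and 10.3 points. Requiring no del/fl peak within 5 kb gave 470 regions, 0.830 Mb, 1440 bp, 1.80, 31.7% and 39.6 kb. Lists of equal length, 32937 peaks each, gave 2109 regions, 1820 bp, 1.97, 36.4% and 10.3 kb. Del/del peaks overlapping by at least 50% of the shorter gave 1407 regions, 1.93, 40.6% and 18.6 kb. Protein-coding genes alone gave 17.8%, and long peaks over 10 or 50 kb gave 212 and 2250 kb. Leaving out each library gave 2199 to 5273 regions, 3.96 to 6.43 Mb, 641 to 1870 bp, a −log10 q of 1.63 to 2.00, 36.0% to 38.5% shared (del/fl left out), 5.19 to 10.8 kb, 20.5% to 22.6%, 827 to 1100 kb and 14.3 to 22.8 points. The causes of these shifts were not tested. Of the 10 longest regions, 3 still held a gained region at a −log10 q of 2 and 0 at a −log10 q of 5. With merging across 1 kb 4 did, across 3 kb 1, and with no del/fl peak within 5 kb 2. All 10 did with lists of equal length and with del/del peaks overlapping by at least 50%. Leaving out a library drops a condition of the rule and leaves a del/del peak in each region, so all 10 were bound to stay there. No paired analysis was possible because the labels do not say which libraries share a line and no result comes from a test. With lists of peaks only, depth limits what absence of a peak can show.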
